A study of Mus musculus with 6 samples.

Results

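The genes described here encode the TGF-beta and BMP signalling machinery: TGF-beta, activin, BMP and GDF ligands, the proteins that process, store or block them, their receptors, the Smads and the Id target genes. They were chosen by name, as the protein-coding rows whose symbol belongs to the Tgfb, Bmp, Gdf, Inhibin, Acvr, Smad, Ltbp, Grem and Id families or is Tgfbr, Bmpr, Nog, Chrd, Bmper or Eng, and there were 63 of them among 54532 genes. RNA-seq had been done on untreated primary cultures from the aortas of wild-type mice, in 3 libraries from female and 3 from male cells, to ask how the sexes differ. All cultures were kept in F-12 medium with 20% fetal bovine serum, heparin and endothelial growth factors. The labels call the cells endothelial and give no age or strain, and nothing in them states that same-sex libraries are separate mice or cultures. The p-values therefore reflect the scatter of these libraries alone, which could be technical.

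Ligands of this family are secreted dimers that bring together type I and type II serine/threonine kinase receptors. TGF-beta and activin receptors mainly phosphorylate Smad2 and Smad3, BMP receptors Smad1, Smad5 and Smad9, and either set joins Smad4 and enters the nucleus. TGF-beta is secreted in a latent complex held in the matrix by Ltbp proteins, BMP ligands are trapped by extracellular antagonists such as gremlin 1, chordin and noggin, and the Id genes are classical BMP targets. In the vessel wall the pathway is known for its part in the matrix production of mesenchymal cells and, through Acvrl1, endoglin and Bmpr2, in endothelial quiescence.

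The library totals ran from 17410996 to 22993574 counts. Xist and the Y-linked genes followed the labelled sex in all 6 libraries. The endothelial label did not hold up against its markers: all 12 endothelial markers checked were under 1 CPM (counts scaled to a common, TMM-adjusted library total) in every library, and Cdh5, Tie1, Robo4 and Cldn5 had no count. Fibroblast markers were abundant, with the 9 genes summing to 31073 to 38972 CPM in female and 16265 to 23884 CPM in male libraries. Most of that sum was Fn1, which was not called, and the other 8 summed to 10587 to 11315 CPM in female and 5983 to 6625 CPM in male libraries. Of the 9, 5 were called higher in female libraries and 1, Thy1, was called lower, where 9.68% and 8.62% of all tested genes were. The 7 smooth muscle markers summed to 118 to 120.5 CPM in female and 142 to 176 CPM in male libraries. Most of that sum was Smtn, at 110 to 114 and 121 to 144 CPM, which was not called, while Acta2 was called lower in female. The 6 pericyte markers summed to 1700 to 1738 and 1637 to 2041 CPM, with 1, Rgs5, called higher and 1, Pdgfrb, lower in female. The 7 leukocyte markers summed to 29.4 to 38.4 and 12.6 to 19.0 CPM, with Ptprc and Itgam at 0 and 2 called higher in female. The 8 mesothelial and epithelial markers summed to 7.81 to 11.4 and 2.08 to 4.38 CPM, with 1, Krt18, called higher. Krt18 made up most of the female sum, at 6.94, 6.47 and 9.10 CPM against 0.242, 0.530 and 0.739 CPM in male libraries. Msln, Upk3b and Wt1 had counts in male libraries only and Epcam in female libraries only, all under 1 CPM. The part of cell type makeup in the results was not tested, and in bulk samples fewer cells of a type and less RNA per cell cannot be told apart. Male replicate 3 stood apart: its log2 CPM correlated at 0.966 to 0.973 with the other male libraries, which correlated with each other at 0.988, while the female libraries correlated at 0.983 to 0.987 among themselves. For tested genes of the family, calls that change without it are given both ways. Calls of markers and of other listed genes are from the main fit with all 6 libraries only.

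Of the 63 genes, 48 had enough counts to be tested, and 17 of them (35.4%) differed between the sexes, where 18.3% of all 14932 tested genes did. Expression was higher in female libraries for 13 (27.1% of those tested, against 9.68% of all genes) and lower for 4 (8.33%, against 8.62%). Calls were made with edgeR's quasi-likelihood test where the p-value, adjusted over all tested genes, was under 0.05. Of the called genes, 7 were at least 2-fold higher and 2 at least 2-fold lower in female libraries, and 10.3% of all genes were called with such a difference. The median log2 fold change of female over male was 0.03 for the 48 genes and -0.01 for all genes. The 3 libraries of one sex did not overlap those of the other for 29 of the 48 (60.4%), against 35.9% of all genes. All female libraries were above all male ones for 18 (19.2% of all genes) and below them for 11 (16.7%). Gdf10 and Gdf7 reached the count filter through the female libraries alone, so these shares describe the tested genes and not the whole set. The 23 tested ligands, antagonists and Id genes held 15 of the 17 calls and the 12 receptors and co-receptors none. This difference between roles was not tested, and other fits narrowed it. Of the 12, limma-voom called 8, where it called 44% of all genes. The fit without male replicate 3 called 6, where 32.7% of all genes were called. The co-receptors Rgma and Rgmb, described below, lie outside the name rule and are not among the 12. As a share of all counts, the 63 genes together took 1.39% to 1.45% in female and 0.904% to 1.11% in male libraries. Without Grem1, which alone took 0.522% to 0.549% and 0.170% to 0.208%, the shares overlapped, at 0.843% to 0.917% and 0.734% to 0.898%.

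**Figure D1:**
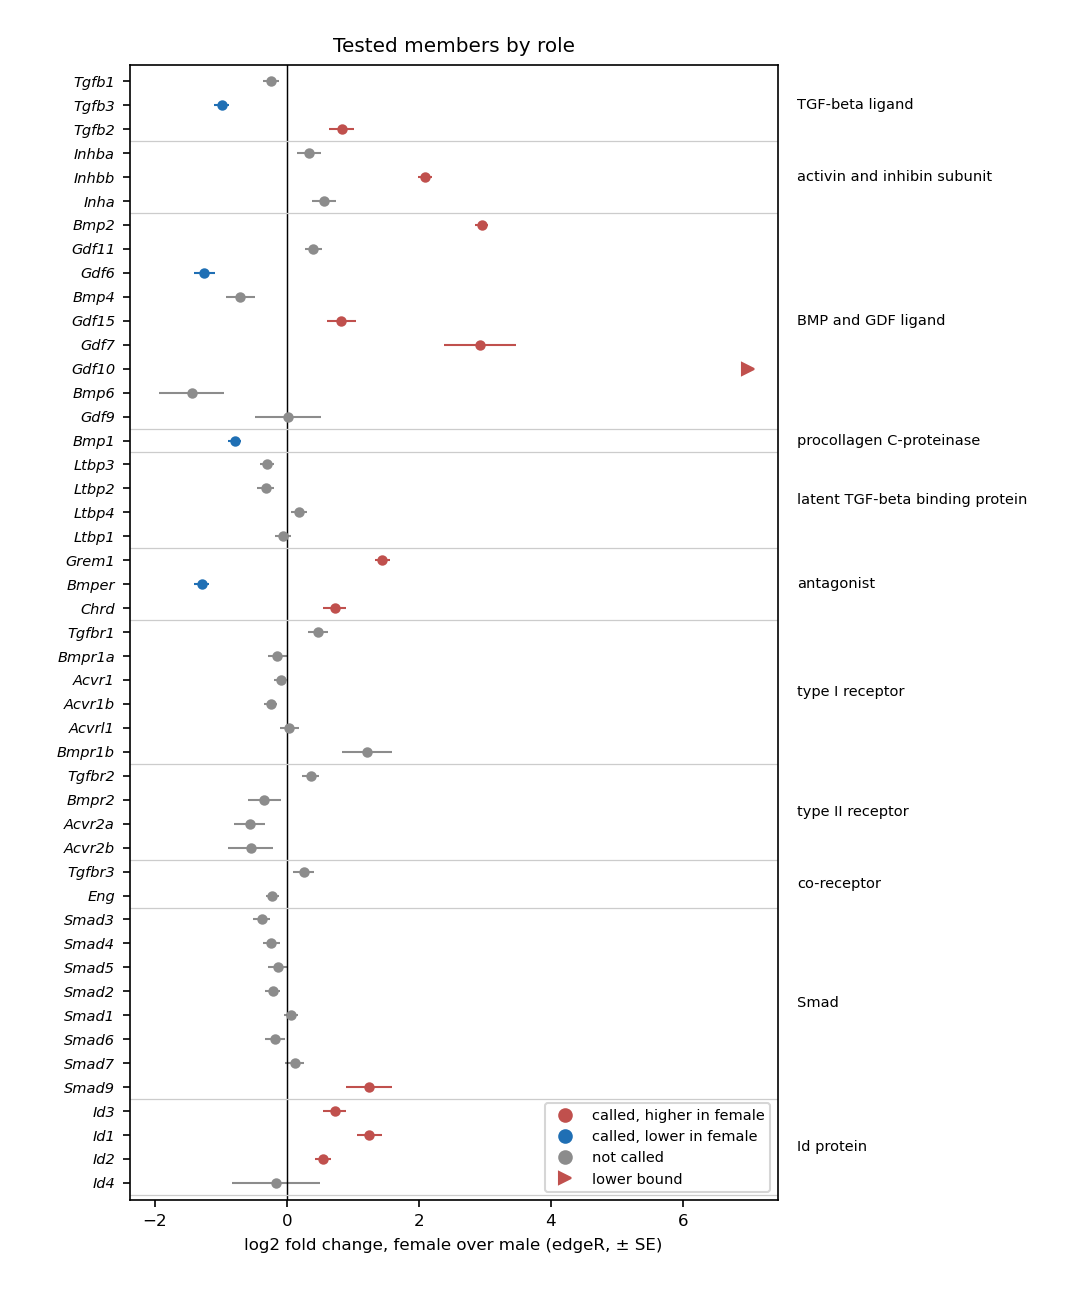
Log2 fold change of female over male for tested genes, grouped by role, with standard errors and colour by call. The called genes sit among the ligands, the antagonists, Bmp1, Smad9 and the Id genes, and none of the 12 tested receptors and co-receptors is called; Gdf10 is drawn at its lower bound.

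The remaining 15 genes were not tested. The 6 without a single count were Nog, which encodes the BMP antagonist noggin, and the ligands Gdf1, Gdf2, Gdf3, Bmp10 and Inhbe; a count of 0 allows 0.128 to 0.171 CPM in a single library, taking 3 counts as the limit. Gdf2 and Bmp10 encode BMP9 and BMP10, the circulating ligands of the endothelial receptor Acvrl1. All of the exon bases of Gdf1 lie within exons of Cers1 on the same strand, so its 0 cannot be read as absence. The other 9 (Inhbc, Bmp3, Bmp5, Bmp7, Bmp8a, Bmp8b, Bmp15, Gdf5 and Acvr1c) had 1 to 39 counts over all libraries and at most 0.868 CPM in any. Among these, Bmp8a had 10 counts in the female and 0 in the male libraries, at least 3.22-fold higher in female, and Bmp3 had 0 and 11, at least 3.80-fold lower. The female counts of Bmp8a were 6, 1 and 3. The male counts of Bmp3 were 5, 6 and 0, so for Bmp3 the groups overlapped. Both limits are taken against 3 counts over the libraries of a sex and cover counting error only.

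BMP and GDF ligands showed the widest range of differences, with a median log2 fold change of 0.40. Of 9 tested genes, 4 were higher in female libraries (44.4%, against 9.68% of all genes). A further 1 was lower (11.1%, against 8.62%) and 4 were not called. Gdf10 and Gdf7, among the 4 higher, reached the count filter through the female libraries alone, so the filter favoured calls in that direction. Bmp2, a ligand of BMP type I receptors known in osteogenesis and vascular calcification, stood at 221, 214 and 217 CPM in female replicates 1 to 3 and at 27.04, 29.4 and 27.8 CPM in male replicates 1 to 3. The male libraries lay close together, far under every female library. The mean was 217 ± 3.74 CPM (SD, n = 3) against 28.1 ± 1.22 CPM (SD, n = 3), 7.74-fold higher in female, with a log2 fold change of 2.95 ± 0.10 (SE) and an edgeR adjusted p of 2.25e-07. The gene lies at chr2:133552159-133562885, plus strand. In TPM, which divides by gene length and so allows genes to be compared, Bmp2 made up 77.8% to 78.5% of the summed level of the 20 BMP and GDF ligands in female and 32.1% to 33.8% in male libraries. That sum was 256 to 277 TPM in female and 65.6 to 80.6 TPM in male libraries.

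Gdf10 encodes a divergent family member also called BMP3b, and lies at chr14:33923587-33937983, plus strand. Its level was 6.12, 6.07 and 6.53 CPM in the female libraries, and no male library held a count. With 395 counts against 0 it was at least 127-fold higher in female, with an edgeR adjusted p of 1.83e-05. Gdf7, a ligand of the BMP class known from the dorsal neural tube and from tendon, was at 2.15, 2.47 and 2.09 CPM in female and 0.339, 0.441 and 0.0569 CPM in male libraries. Every female library lay above every male one, though the male values rest on few counts. The log2 fold change was 2.93 ± 0.55 (SE), with an edgeR adjusted p of 0.00454. Gdf15, a stress-induced divergent member that acts through Gfral, was at 4.02, 4.44 and 4.61 CPM in female and 2.56, 2.29 and 2.50 CPM in male libraries. The groups did not overlap and the log2 fold change was 0.83 ± 0.23 (SE), with an edgeR adjusted p of 0.0303. This call was lost when any library other than male replicate 3 was left out, with adjusted p values of 0.0597 to 0.115.

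Gdf6, a ligand required for joint and eye formation, went the other way. It was at 8.68, 6.47 and 7.17 CPM in female and 18.4, 16.9 and 17.97 CPM in male libraries. Every male library lay above every female one, with a log2 fold change of -1.25 ± 0.16 (SE) and an edgeR adjusted p of 0.000412. Its share of the summed BMP and GDF ligand TPM was 2.37% to 3.09% in female and 19.5% to 21.9% in male libraries. Among the ligands not called, Gdf11, a close relative of myostatin, was at 28.5, 28.9 and 28.6 CPM in female and 20.996, 24.01 and 19.97 CPM in the male (log2 fold change 0.40 ± 0.13 (SE), edgeR adjusted p = 0.0528). Bmp4, a broadly acting BMP, was at 3.15, 3.77 and 4.48 CPM in female and 6.24, 5.34 and 7.05 CPM in the male (log2 fold change -0.70 ± 0.22 (SE), edgeR adjusted p = 0.0554). For both, the groups did not overlap but the adjusted p missed the threshold. Bmp6, known for its control of hepcidin, was at 1.69, 0.956 and 0.384 CPM in female and 2.95, 3.27 and 1.99 CPM in the male (log2 fold change -1.44 ± 0.49 (SE), edgeR adjusted p = 0.0766). Exons of Bmp6 share 224 bases with the far more abundant Txndc5 on the opposite strand, and because the counting's strand setting is not stated in the sources used here, its reads cannot be told apart from those of Txndc5 there. Without male replicate 3, Gdf11 and Bmp6 were called, at log2 fold changes of 0.35 and -1.62. Gdf9, an oocyte ligand, was the ninth tested gene, with a log2 fold change of 0.02 ± 0.50 (SE) and an edgeR adjusted p of 0.986.

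**Figure D2:**
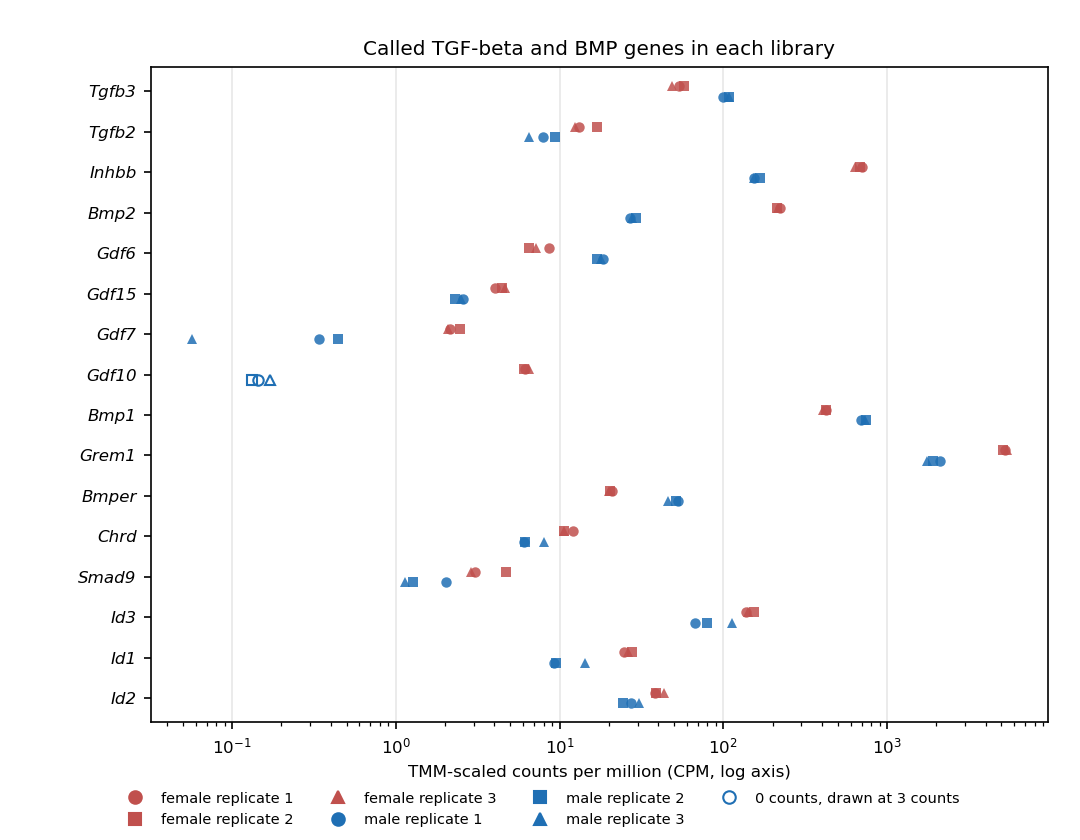
CPM of called genes in each library on a log axis, with female and male libraries in different colours and values of 0 drawn at the limit of 3 counts. The female points lie above the male points for the genes called higher and below them for Tgfb3, Gdf6, Bmp1 and Bmper.

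The TGF-beta ligands split in direction. Tgfb3, the isoform needed for palate fusion, was lower in female libraries, at 53.98, 57.2 and 48.5 CPM against 99.7, 108 and 109 CPM in male libraries. All male libraries lay far above all female ones, with a log2 fold change of -0.99 ± 0.11 (SE) and an edgeR adjusted p of 0.000167. Tgfb2, the isoform that needs the co-receptor betaglycan for high-affinity binding, was higher in female libraries, at 13.2, 17.03 and 12.3 CPM against 7.93, 9.36 and 6.54 CPM. The groups did not overlap, and the log2 fold change was 0.83 ± 0.19 (SE) with an edgeR adjusted p of 0.0148, which became 0.0845 without female replicate 2. Tgfb1, the most abundant of the 3 in TPM, was at 189, 192 and 193 CPM in female and 190.3, 231 and 257 CPM in male libraries. Male replicate 1 lay within the female range, and the difference did not pass the test (log2 fold change -0.24 ± 0.12 (SE), edgeR adjusted p = 0.237). It was -0.14 without male replicate 3. Summed over the 3 ligands, the level was 181 to 194 TPM in female and 233 to 260 TPM in male libraries, of which Tgfb3 made up 26.2% to 29.2% and 38.2% to 42.98%.

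Activin and inhibin subunits are shared between dimers: the beta subunits Inhba and Inhbb form activins, and each can pair with the alpha subunit Inha to form an inhibin, an activin antagonist. Inhbb was at 699, 680.3 and 642 CPM in female and 153, 167 and 154 CPM in male libraries. The groups were far apart, at 674 ± 29.2 CPM (SD, n = 3) and 158 ± 7.70 CPM (SD, n = 3). This was 4.26-fold higher in female, with a log2 fold change of 2.09 ± 0.11 (SE) and an edgeR adjusted p of 1.42e-06. The gene lies at chr1:119415465-119422248, minus strand. Inhba was at 1031, 880.2 and 934 CPM in female and 918, 797 and 543 CPM in male libraries, with overlapping groups (log2 fold change 0.33 ± 0.18 (SE), edgeR adjusted p = 0.259). Without male replicate 3, the lowest, its log2 fold change was 0.14. In TPM, Inhbb made up 49.1% to 52.3% of the summed subunit TPM in female and 19.5% to 28.5% in male libraries, and Inhba 45.04% to 48.2% and 66.6% to 77.9%. Inha was at 13.7, 12.1 and 10.1 CPM in female and 7.11, 7.99 and 9.27 CPM in male libraries, without overlap, but its adjusted p missed the threshold (log2 fold change 0.56 ± 0.18 (SE), edgeR adjusted p = 0.0630). Without male replicate 3 it was called, at a log2 fold change of 0.66.

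**Figure D3:**
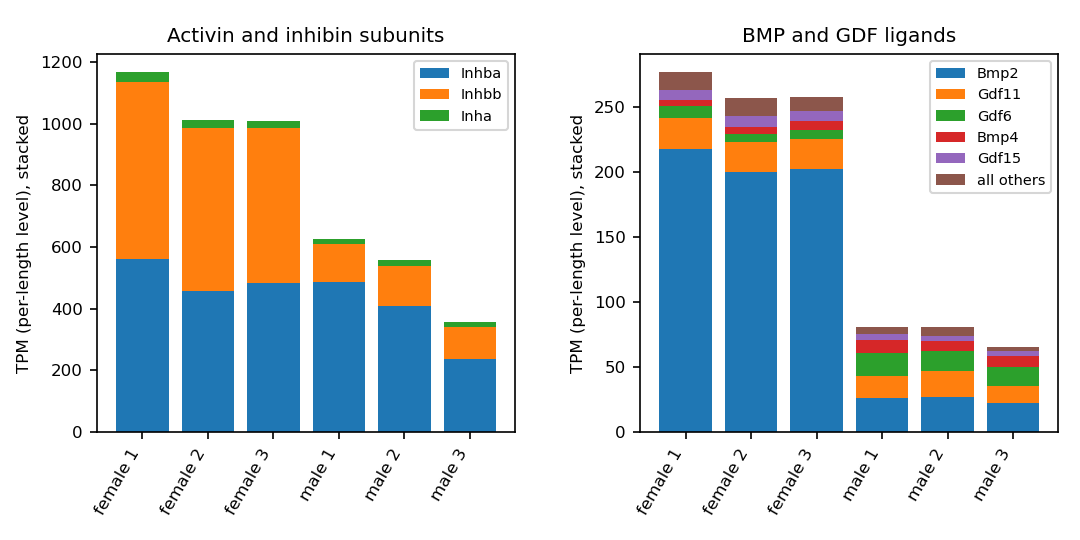
Stacked bars of TPM in each library, for the activin and inhibin subunits (left) and the BMP and GDF ligands (right), coloured by gene. The BMP and GDF bars reach 256 to 277 TPM in female and 65.6 to 80.6 TPM in male libraries, with Bmp2 making up 77.8% to 78.5% and 32.1% to 33.8% of them.

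Proteinases and latency proteins act on ligands outside the cell before they reach a receptor. Bmp1, despite its name, is a procollagen C-proteinase that also cleaves chordin and Ltbp1, and it was lower in female libraries, at 426, 425 and 404 CPM against 698, 742 and 729.5 CPM. All male libraries lay above all female ones, with a log2 fold change of -0.79 ± 0.10 (SE) and an edgeR adjusted p of 0.000385. None of the 4 Ltbp genes was called, and their median log2 fold change was -0.17. Ltbp3 was at 986, 957 and 859 CPM in female and 1125, 1179.8 and 1134 CPM in male libraries, without overlap (log2 fold change -0.30 ± 0.11 (SE), edgeR adjusted p = 0.0913). Ltbp2, which does not bind latent TGF-beta, was at 1414, 1325 and 1214 CPM in female and 1784, 1765 and 1390.4 CPM in male libraries, where male replicate 3 lay within the female range (log2 fold change -0.32 ± 0.13 (SE), edgeR adjusted p = 0.134). Ltbp4 was at 563, 551 and 475 CPM in female and 454, 520.3 and 421 CPM in male libraries, with overlap (log2 fold change 0.19 ± 0.12 (SE), edgeR adjusted p = 0.361). It was 0.12 without male replicate 3. Ltbp1 had a log2 fold change of -0.05 ± 0.12 (SE) and an edgeR adjusted p of 0.805. Without male replicate 3, Ltbp2 and Ltbp3 were called, at log2 fold changes of -0.43 and -0.30.

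All 4 tested antagonists were called, where 18.3% of all genes were. Grem1 and Chrd were among those higher in female libraries and Bmper was the lower one. Grem1 encodes gremlin 1, which binds BMP2, BMP4 and BMP7, and it was the most abundant of all 63 genes in TPM, above 99.8% of tested genes. It stood at 5242, 5106 and 5395 CPM in female and 2113, 1908 and 1751 CPM in male libraries. The female libraries agreed closely and all lay far above the male ones, at 5248 ± 144 CPM (SD, n = 3) against 1924 ± 181 CPM (SD, n = 3). The log2 fold change was 1.45 ± 0.12 (SE), or 2.73-fold, with an edgeR adjusted p of 2.37e-05. It made up 98.8% to 98.9% of the summed antagonist TPM in female and 96.2% to 96.7% in male libraries, and that sum was 4125 to 4456 TPM against 1229 to 1790.0 TPM.

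Chrd encodes chordin, which sequesters BMPs until it is cleaved, and was at 12.1, 10.7 and 10.7 CPM in female and 6.05, 6.18 and 8.08 CPM in male libraries. The groups did not overlap, and the log2 fold change was 0.73 ± 0.18 (SE) with an edgeR adjusted p of 0.0179. This call was lost when any library other than male replicate 3 was left out, with adjusted p values of 0.0525 to 0.0863. Exons of Chrd share 239 bases with Thpo on the opposite strand. Bmper, a secreted protein with chordin-like repeats that can block or promote BMP signalling, was at 20.96, 20.2 and 20.03 CPM in female and 52.6, 51.5 and 45.7 CPM in male libraries. All male libraries lay above all female ones, with a log2 fold change of -1.29 ± 0.12 (SE) and an edgeR adjusted p of 4.01e-05.

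The RefSeq promoter windows of GRCm38.p6, 250 bases before to 50 after a gene's start, were found for 46 of the 63 genes. Each was searched for GGCGCC, a GC-rich box bound by Smad1 and Smad5, and for the Smad boxes GTCTAGAC and GTCTNGAC, on both strands; GTCTNGAC includes every GTCTAGAC. GGCGCC was in 12 of 46 windows (26.1%), against 12% of 27025 windows of all genes. It was in 5 of 10 windows of genes higher in female libraries, 0 of 1 lower, 6 of 25 not called and 1 of 10 not tested. These counts leave out called genes without a window, among them Bmp2, Id1, Tgfb3, Gdf6 and Bmp1. GGCGCC holds only G and C, and the 12 windows with it were 59.3% to 79.7% G and C. Not every window is upstream sequence: 15 of the 46, and 4 of the 12 with the box, hold GENCODE exon bases before the RefSeq start, and the start of the Gdf1 window, which also holds the box, is 14 kb from that of the deposited table. The start of the Bmpr1b window, which lacks the box, is 187.2 kb from that of the deposited table. The windows of all genes were not filtered for such cases, nor matched for G and C content. GTCTAGAC was in 1 window (2.17%, against 0.211% of all), that of Smad6, as was GTCTNGAC (2.17%, against 1.87%). A match is a description of letters and not a binding site. The 250 bases before the start are shown, 5′ to 3′ on the gene's strand with GGCGCC in capitals, for Grem1, the most abundant gene, Chrd and Smad9, which were also higher in female libraries, and Gdf10, which had no male count. The box of Gdf10 lies in the 50 bases after its start and so outside the stretch shown. The box begins 78, 203 and 51 bases before the start of Grem1, Chrd and Smad9.
Grem1, chr2:113758649-113758898, minus strand: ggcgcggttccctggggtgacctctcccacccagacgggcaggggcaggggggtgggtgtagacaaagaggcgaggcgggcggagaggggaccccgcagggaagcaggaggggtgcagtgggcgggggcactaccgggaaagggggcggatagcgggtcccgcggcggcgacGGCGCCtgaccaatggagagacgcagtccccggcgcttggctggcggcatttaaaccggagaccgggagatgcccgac
Chrd, chr16:20732877-20733126, plus strand: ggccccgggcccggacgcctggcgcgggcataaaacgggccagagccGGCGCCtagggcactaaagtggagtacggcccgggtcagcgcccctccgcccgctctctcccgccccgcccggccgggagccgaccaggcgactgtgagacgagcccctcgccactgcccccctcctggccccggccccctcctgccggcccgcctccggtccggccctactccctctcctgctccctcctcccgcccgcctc
Smad9, chr3:54755332-54755581, plus strand: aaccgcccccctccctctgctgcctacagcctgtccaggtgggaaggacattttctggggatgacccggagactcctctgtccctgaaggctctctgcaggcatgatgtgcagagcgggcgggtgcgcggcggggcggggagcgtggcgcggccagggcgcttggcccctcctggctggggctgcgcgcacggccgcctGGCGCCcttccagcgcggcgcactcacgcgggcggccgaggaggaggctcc
Gdf10, chr14:33923337-33923586, plus strand: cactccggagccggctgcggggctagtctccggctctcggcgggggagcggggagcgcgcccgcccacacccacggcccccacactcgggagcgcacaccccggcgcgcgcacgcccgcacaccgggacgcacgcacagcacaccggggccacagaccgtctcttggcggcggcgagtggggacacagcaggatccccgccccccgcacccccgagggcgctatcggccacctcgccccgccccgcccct

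No receptor or co-receptor was called among the 12 tested. DESeq2 called 1, Tgfbr1, the length and GC offset 3 and limma-voom 8, where they called 16.9%, 25% and 44% of all genes. The 6 type I receptors had a median log2 fold change of -0.03, the 4 type II receptors of -0.45 and the co-receptors of 0.02. Tgfbr1, the TGF-beta type I receptor, was at 298, 270.4 and 303 CPM in female and 252, 207 and 168 CPM in male libraries, without overlap (log2 fold change 0.48 ± 0.15 (SE), edgeR adjusted p = 0.0546). Tgfbr2, its type II partner, was at 355, 344 and 331 CPM in female and 307, 272 and 222 CPM in male libraries, also without overlap (log2 fold change 0.36 ± 0.13 (SE), edgeR adjusted p = 0.0915). Both leaned towards female libraries without passing the test. Bmpr1a, a BMP type I receptor, was at 172, 153 and 163 CPM in female and 216, 175 and 147 CPM in the male (log2 fold change -0.14 ± 0.14 (SE), edgeR adjusted p = 0.575). Acvr1, which serves BMP and activin ligands, was at 76.9, 73.2 and 66.2 CPM in female and 76.7, 77.99 and 75.5 CPM in the male (log2 fold change -0.09 ± 0.10 (SE), edgeR adjusted p = 0.626). For both, the groups overlapped. The other tested type I receptors, Acvr1b, Acvrl1 and Bmpr1b, had log2 fold changes between -0.24 and 1.22. The last is that of Bmpr1b, which was near 1 to 3 CPM in every library and had an edgeR adjusted p of 0.0534.

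Bmpr2, the BMP type II receptor, was at 235, 189 and 209 CPM in female and 365, 279 and 159 CPM in the male (log2 fold change -0.34 ± 0.25 (SE), edgeR adjusted p = 0.407). Male replicates 1 and 2 lay above all female libraries and male replicate 3 below them. The log2 fold change was -0.06 without male replicate 1 and -0.61 without male replicate 3, so its size depends on which male library is left out. Acvr2a, an activin type II receptor, was at 15.9, 10.7 and 12.5 CPM in female and 24.6, 19.9 and 13.4 CPM in the male (log2 fold change -0.56 ± 0.24 (SE), edgeR adjusted p = 0.144), and the value was -0.35 without male replicate 1. Exons of Acvr2a share 446 bases (7.84%) with Orc4 on the opposite strand, whose reads cannot be told apart from its own there. Male replicate 3 was the lowest male library for all 4 type II receptors, at 0.495 to 0.768 times the mean of the other male libraries. Without it, 6 receptors were called where 32.7% of all genes were: Tgfbr1 (0.34), Tgfbr2 (0.24) and Bmpr1b (1.28) higher, and Bmpr1a (-0.27), Bmpr2 and Acvr2a (-0.76) lower in female libraries, as log2 fold changes. The co-receptor Tgfbr3, or betaglycan, was at 473, 435 and 423 CPM in female and 443, 393 and 279 CPM in male libraries, with overlap (log2 fold change 0.25 ± 0.16 (SE), edgeR adjusted p = 0.346). Without male replicate 3 the value for Tgfbr3 was 0.08. Eng, or endoglin, was at 176, 168 and 169 CPM in female and 196, 194 and 207 CPM in male libraries, without overlap (log2 fold change -0.22 ± 0.10 (SE), edgeR adjusted p = 0.163).

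**Figure D4:**
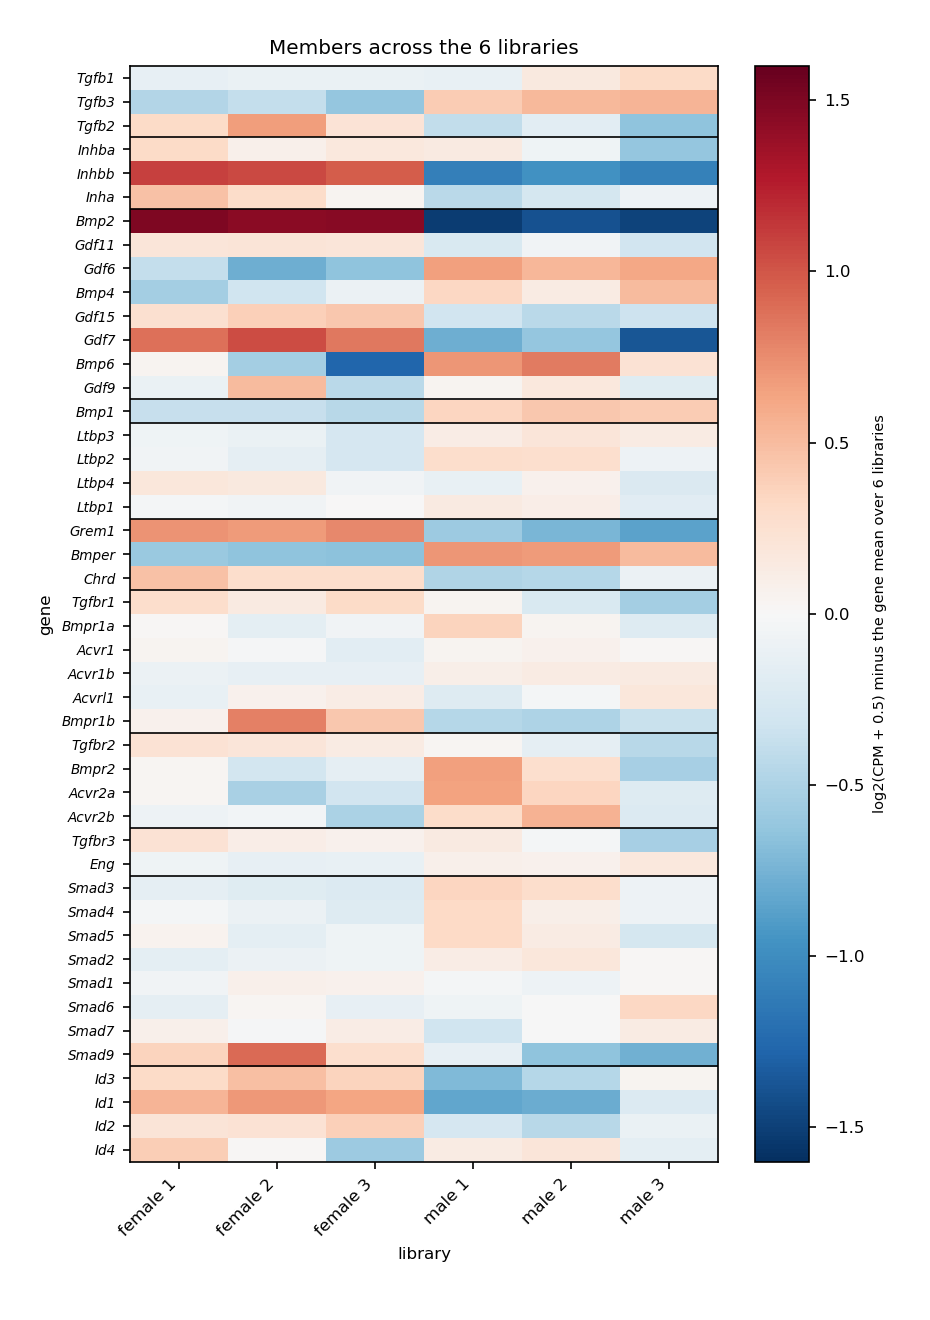
Difference of log2(CPM + 0.5) from each gene's mean over the 6 libraries, for tested genes with counts in both sexes, with lines between roles. Bmp2 and Inhbb are far higher in all 3 female libraries, and male replicate 3 has the lowest male values for all 4 type II receptors.

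Of the 8 Smads, 1 (12.5%) was called, where 18.3% of all genes were. Smad9, a BMP-regulated Smad also called Smad8, was higher in female libraries, at 3.06, 4.72 and 2.86 CPM against 2.03, 1.28 and 1.14 CPM. The groups did not overlap, and the log2 fold change was 1.25 ± 0.34 (SE) with an edgeR adjusted p of 0.0322. The adjusted p was 0.0668 without female replicate 1, 0.164 without female replicate 2, 0.0549 without female replicate 3 and 0.128 without male replicate 2. Smad3, the effector of TGF-beta and activin, was at 318, 306 and 303 CPM in female and 447, 428 and 331 CPM in male libraries, without overlap (log2 fold change -0.38 ± 0.13 (SE), edgeR adjusted p = 0.0758). Smad4, the shared partner, was at 92.9, 89.2 and 82.2 CPM in female and 119, 102 and 89.8 CPM in the male (log2 fold change -0.23 ± 0.13 (SE), edgeR adjusted p = 0.258). The BMP effector Smad5 was at 114, 98.05 and 105 CPM in female and 137, 119.6 and 89.8 CPM in the male (log2 fold change -0.13 ± 0.15 (SE), edgeR adjusted p = 0.641). For Smad4 and Smad5 the groups overlapped through male replicate 3. Without that library Smad3, Smad4 and Smad5 were called lower in female, at log2 fold changes of -0.50, -0.33 and -0.28. Smad1, Smad2 and the inhibitory Smad6 and Smad7 were not called, with log2 fold changes of 0.06, -0.21, -0.18 and 0.12.

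The Id genes encode helix-loop-helix proteins that block basic helix-loop-helix transcription factors. Of the 4, Id1, Id2 and Id3 were higher in female libraries, where 9.68% of all genes were, and Id4 was not called. Their median log2 fold change was 0.64. Id1 was at 24.8, 27.5 and 26.3 CPM in female and 9.24, 9.49 and 14.4 CPM in the male (log2 fold change 1.25 ± 0.19 (SE), edgeR adjusted p = 0.00117). Id2 was at 38.4, 38.9 and 43.3 CPM in female and 27.5, 24.4 and 30.7 CPM in the male (log2 fold change 0.55 ± 0.13 (SE), edgeR adjusted p = 0.0146). Id3, the most abundant of the 4 in TPM, was at 137, 154 and 141 CPM in female and 67.3, 80.02 and 113 CPM in the male (log2 fold change 0.73 ± 0.18 (SE), edgeR adjusted p = 0.0179). For these 3 genes the groups did not overlap, and male replicate 3 was the highest male library. Summed over the 4 genes, the level was 395 to 416 TPM in female and 194 to 248 TPM in male libraries. The Id2 call was lost without female replicate 2 (edgeR adjusted p = 0.0547), female replicate 3 (0.0772) or male replicate 2 (0.0808), and the Id3 call without the same libraries (0.0799, 0.0652 and 0.0865). Id4 was at 0.731, 0.450 and 0.128 CPM in female and 0.532, 0.574 and 0.341 CPM in male libraries, near the limit of detection (log2 fold change -0.17 ± 0.67 (SE), edgeR adjusted p = 0.899).

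Genes often used as TGF-beta or BMP response genes, pooled in 1 list, did not all follow the Id genes in direction. Of 17 tested, 3 were higher and 7 lower in female libraries, where 9.68% and 8.62% of all genes were. Their median log2 fold change was -0.34. Ctgf, a matricellular protein gene, was at 172, 183 and 173 CPM in female and 381, 368 and 451 CPM in the male (log2 fold change -1.18 ± 0.11 (SE), edgeR adjusted p = 6.92e-05). The homeobox gene Msx1, a BMP target in the embryo, was at 1.10, 1.41 and 1.025 CPM in female and 7.498, 7.99 and 5.92 CPM in the male (log2 fold change -2.61 ± 0.25 (SE), edgeR adjusted p = 6.92e-05). Both were lower in female libraries without overlap. Tgfbi, which encodes a matrix protein named for its induction by TGF-beta, was higher, at 2092, 2230.2 and 2044 CPM in female and 869, 911 and 1008 CPM in the male (log2 fold change 1.19 ± 0.11 (SE), edgeR adjusted p = 5.59e-05). All of these genes also respond to other signals. In the same libraries 5 of 9 fibroblast markers were higher and 1 of 4 tested smooth muscle markers, Acta2, was lower in female. Acta2 is also among the 7 lower response genes, and Tagln, not called, is on both lists. The part of cell type makeup in these differences was not tested.

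**Figure D5:**
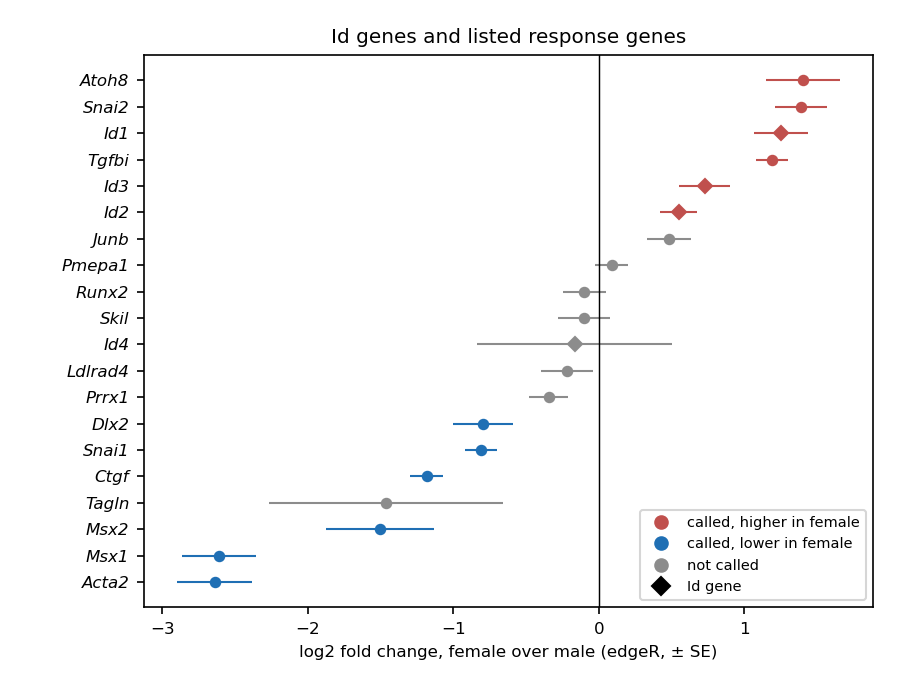
Log2 fold change of female over male, with standard errors, for the Id genes and often used response genes. Id1, Id2 and Id3 lie above 0, while Ctgf and Msx1 lie below it and Tgfbi above it.

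Other genes of the pathway fell into 5 further groups. Among other antagonists and ligand binders, 6 of 15 tested were higher and 3 lower in female libraries, where 9.68% and 8.62% of all genes were. Their median log2 fold change was 0.27. Dcn, which encodes the proteoglycan decorin that binds TGF-beta and is also among the fibroblast markers, was at 1158, 1193 and 1224 CPM in female and 343, 306 and 347 CPM in the male (log2 fold change 1.84 ± 0.11 (SE), edgeR adjusted p = 3.21e-06). Htra1, a secreted serine protease reported to restrain TGF-beta family signalling, was at 167, 193 and 194 CPM in female and 663, 642 and 839 CPM in the male (log2 fold change -1.95 ± 0.14 (SE), edgeR adjusted p = 1.03e-05). In neither gene did the groups overlap. Tsku, or tsukushi, was lower in female libraries (log2 fold change -1.09 ± 0.11 (SE), edgeR adjusted p = 0.000112). Chrdl1, a chordin-like BMP antagonist, had 53, 63 and 47 counts in female and 2, 0 and 0 counts in male libraries. It is among the 6 higher genes but reached the count filter through the female libraries alone.

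Among proteins that act beside the receptors, 3 of 8 tested were higher in female libraries and none lower, with a median log2 fold change of -0.02. These were the BMP co-receptors Rgma (log2 fold change 1.17 ± 0.12 (SE), edgeR adjusted p = 8.81e-05) and Rgmb (0.59 ± 0.10 (SE), 0.00205) and the pseudoreceptor Bambi (1.19 ± 0.20 (SE), 0.00233), which dampens signalling. Ligand activation and latency genes had 1 of 10 higher and 3 lower, with a median of 0.09. The lower ones were Thbs1, encoding the TGF-beta activator thrombospondin 1 (log2 fold change -1.34 ± 0.17 (SE), edgeR adjusted p = 0.000464), and the subunits of the TGF-beta activating integrin, Itgav (-1.04 ± 0.18 (SE), 0.00255) and Itgb8 (-2.11 ± 0.27 (SE), 0.000469). The higher one was Pcsk6, a proprotein convertase (log2 fold change 1.95 ± 0.25 (SE), edgeR adjusted p = 0.000388). For Thbs1, Itgav and Itgb8, male replicate 3 was the lowest male library but still lay above every female one. Of 18 intracellular regulators, 17 were not called and the ubiquitin ligase gene Smurf2 was lower in female libraries (log2 fold change -0.64 ± 0.15 (SE), edgeR adjusted p = 0.0152). Lefty1, an antagonist of Nodal, was the only tested gene among 5 other ligands and was higher in female libraries (log2 fold change 0.55 ± 0.16 (SE), edgeR adjusted p = 0.0404).

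Several of the genes are neighbours in the genome, by the coordinates of the deposited table. Gdf10 lies 3.1 kb from Gdf2 on chromosome 14, and Gdf2 had no count in any library, female ones included. Acvrl1 and Acvr1b are 28.7 kb apart on chromosome 15, and neither was called. Acvr1 and Acvr1c are 30.7 kb apart on chromosome 2, and only the former was tested. Smad3 and Smad6 are 195.1 kb apart on chromosome 9, with log2 fold changes of -0.38 and -0.18.

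Replicates were tighter in female than in male libraries. Over the 47 tested genes with counts in both sexes, the median coefficient of variation was 7.02% among female and 13.8% among male libraries, and it was larger among male libraries for 34. Male replicate 3 was the lowest male library for 25 of the 48 tested genes. Without it, 31 of the 48 were called, 18 higher and 13 lower in female libraries, where 16.2% and 16.4% of all genes were, and all 17 calls remained. Of the 17, 11 were called under every alternative in which they were fitted, among them Bmp2, Inhbb, Gdf10, Gdf7, Grem1 and Id1 as higher, and Tgfb3, Gdf6, Bmp1 and Bmper as lower in female libraries. Gdf10 and Gdf7 reached the count filter through the female libraries alone, and Gdf7 was not fitted at a mean of at least 50 counts.

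Other fits called more of the genes. DESeq2 called 21, 14 higher and 7 lower in female libraries, where it called 16.9% of all genes, 8.51% higher and 8.43% lower. With limma-voom and quality weights it was 36, 18 in each direction, where 44% of all genes were called, 22% higher and 22% lower. With the replicate number as a block it was 21, 14 higher and 7 lower, where 20.5% of all genes were called, 10.8% higher and 9.7% lower. With an offset for gene length and GC content, an alternative chosen after seeing the data, it was 25, 18 higher and 7 lower, where 25% of all genes were called, 12.6% higher and 12.4% lower. DESeq2, limma-voom and the offset kept all 17 calls, and the block lost that of Gdf15.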

How the data were processed

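Poly-A selected RNA was sequenced in 3 libraries from female and 3 from male cells, per the labels' protocols. The authors deposited whole-number read counts per gene, without normalization, made with HISAT2 2.0.5 and featureCounts 1.5, per the submitters' processing notes. Neither the genome build nor the strand setting is given in the sources used here. GENCODE M21 had 62 of the 63 genes at the same coordinates. Groups follow the labelled sex.

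All genes with enough counts (filterByExpr, minimum count 10) were fitted with edgeR 4.0.16 (R 4.3.3), using robust quasi-likelihood F tests and TMM scaling, and Benjamini-Hochberg adjusted over 14932 genes. Fold changes are female over male. The SE is the absolute log2 fold change divided by the square root of F. CPM use TMM-scaled totals and TPM the gene length of the table. Alternatives were RLE scaling, DESeq2 1.42.0, limma-voom (limma 3.58.1), other filters, a replicate block and leaving out each library; a length and GC offset was added after seeing the data. Only the main edgeR fit was tested on simulated data, and the alternatives were not. Same-sex libraries differed by more than sampling noise (chi-square per degree of freedom 7.43 to 70.8). The genes and lists were chosen with earlier results of these data known. Called genes and up to 3 uncalled leaders by TPM per role are given per library, and other pathway genes only if called, up to 4 per list by smallest p; some genes that enter the counts are not reported by name or drawn here.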

Additional observations from a re-analysis of the deposited data

How the results depend on the processing

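The 13 genes higher in female libraries became 13 with RLE scaling, 14 with DESeq2, 18 with limma-voom, 13 without the filter, 12 at a mean of at least 50 counts, 18 with the length and GC offset chosen after seeing the data, and 7 (without female replicate 2) to 18 (without male replicate 3) on leaving out 1 library. The 4 lower genes became 7 with DESeq2, 18 with limma-voom, 7 without the filter, 7 with the offset, and 4 to 13 (without male replicate 3) on leaving out 1 library; the cause was not tested. The share of all genes called was 16.9% with DESeq2, 44% with limma-voom and 25% with the offset. Directions reversed only for genes that were not called. Leaving out 1 library, the log2 fold changes ran from -0.15 to 0.0045 for Ltbp1, -0.27 to 0.012 for Bmpr1a, -0.28 to 0.0083 for Smad5 and -0.00058 to 0.22 for Smad7 (each reversed without male replicate 1), from -0.054 to 0.14 for Acvrl1 (reversed without male replicate 1, and at -0.015 without female replicate 3), from -0.79 to 0.28 for Id4 (reversed without female replicate 3), and from -0.46 to 0.30 for Gdf9 (reversed without female replicate 2, and at -0.12 without male replicate 3). Gdf9 also reversed with limma-voom (-0.028) and the offset (-0.037). Genes of few counts, such as Gdf7, Gdf9 and Id4, are limited by depth.

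With the replicate block, 14 genes were higher and 7 lower, and Gdf9 reversed (-0.035). Gdf15 lost its call (adjusted p 0.0536), and Bmp4, Bmp6, Smad3, Tgfbr1 and Tgfbr2 gained one. The numbers need not pair the cultures: the deviations of same-numbered libraries correlated at 0.206, -0.00405 and 0.152, and not every library correlated best with its own number.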

Other observations

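Male replicate 3 differed from the other male libraries in both directions, between roles and within them. Relative to the mean of the other 2 male libraries, its level had a median ratio of 0.59 over the 4 type II receptors and of 1.36 over the 4 Id genes, of which Id1, Id2 and Id3 were highest and Id4 lowest there. Over the 8 Smads the ratio ran from 0.687 to 1.3. These roles also differ in gene length, at 3928 to 17983 bases for the type II receptors. Id1, Id2 and Id3 have 1160 to 2438 bases and Id4 has 3849. The part of role beside length was not tested. Across all genes, the deviation of a library from the others of its sex had a Spearman correlation with gene length of -0.438 in male replicate 3, 0.396 in male replicate 1 and -0.175 to 0.229 in the other libraries, and genes are not independent replicates.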
